A study of Sus scrofa with 6 samples.

Results

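The genes described here encode proteins of DNA damage repair. They were chosen by name from a list of 57 symbols covering homologous recombination, the Fanconi anemia pathway, end joining, base excision, mismatch and nucleotide excision repair and the checkpoint kinases. The symbols were looked up in the mRNA table of an RNA-seq study of pig lung, in which 48 of the 57 had a row among 14579 mRNAs. The 9 symbols without a matched row (XRCC2, FANCC, XRCC4, OGG1, APEX1, ERCC1, ERCC2, ERCC5 and CHEK2) were not analysed here.

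The study compared whole lung tissue of 3 fetal piglets (Fetal1 to Fetal3) with that of 3 neonatal piglets (Neonatal1 to Neonatal3), with 1 library per piglet. All 6 were female hybrids of a Tibetan sire and a Meishan dam. The fetal piglets came from 3 sows and were taken on the last day before birth, whereas the neonatal piglets came from 3 other sows and were taken 2 days after birth. The interval spans the change from a liquid-filled to an air-breathing lung, and the comparison asks which transcripts differ across it. Birth, breathing, feeding and 2 days of age all separate the groups and cannot be told apart. Surfactant and alveolar type I transcripts identified the tissue as lung, since SFTPC ranged from 3171 to 8790 FPKM and AGER from 396 to 767 FPKM over the 6 samples.

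Levels are given in FPKM, the number of fragments scaled to transcript length and sequencing depth. Differences are neonatal minus fetal means of log2(FPKM + 1), tested in limma across all 14579 mRNAs with Benjamini-Hochberg adjustment, and a gene was called where the adjusted p was 0.05 or less. This scale understates the change of genes with low FPKM, which include many of the genes below. No read counts accompany the values, so error came only from the spread between the 3 piglets of a group. For each gene, limma drew that spread toward a trend over all mRNAs. In whole tissue, fewer cells of a type and less RNA per cell cannot be told apart. The median difference of all mRNAs was 0.13 and moved to -0.0090 with median-of-ratios size factors, and small positive values are read against that shift.

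Cells repair each kind of DNA lesion by its own route. Base excision repair removes small damaged bases and seals the nick through the scaffold XRCC1, mismatch repair corrects replication errors, and nucleotide excision repair cuts out bulky adducts. Broken ends are either joined directly by end joining, which works throughout the cell cycle, or copied from the sister chromatid by homologous recombination, which is tied to S and G2 phase and shares many factors with the Fanconi anemia pathway that unhooks crosslinked strands. In the lung, birth brings a sudden rise in oxygen, a source of oxidized bases and strand breaks.

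Repair genes of homologous recombination, the Fanconi anemia pathway and base excision mostly had higher neonatal means, whereas those of the other routes were divided. Of the 48 genes, 5 rose in the neonatal group and 0 fell. The 5 were CHEK1, NEIL3, EXO1, FANCD2 and PARP1, and they make up 10.4% of the genes. Among all mRNAs, limma called 6.87%, with 5.41% higher and 1.45% lower. EXO1 and NEIL3 exceeded the table's minimum of 0.5 FPKM in neonatal samples only, which required a higher neonatal value. Where both groups had to exceed it, 3 of 42 genes were called higher, beside 5.4% of the mRNAs then fitted. An unadjusted p under 0.05 was reached by 21 of the 48 genes, beside 24.2% of all mRNAs, and XPA alone of these was lower in the neonatal group. A larger share differed without overlap, that is, with every neonatal sample above or below every fetal sample. Such separation was found upward for 22 genes (45.8%), beside 20.9% of all mRNAs, and downward for 2 (XPA and ERCC3), beside 9.64%. The remaining 24 genes overlapped. These counts are of FPKM without size factors. The factors were 0.908 to 1.01 in the fetal samples, 1.00 in Neonatal1, 1.09 in Neonatal2 and 1.15 in Neonatal3. Dividing by them lowers Neonatal2 and Neonatal3 relative to every fetal sample, so the counts depend on the scale. Separation with size factors is not reported here. Of the 42 genes above the minimum in both groups, 17 were separated upward. The share of all mRNAs separated under that requirement is not reported here. The mean was higher in the neonatal group for 36 genes and lower for 12. Of all mRNAs, 59.9% had a higher neonatal mean, and under size factors these numbers became 30 genes of 48 and 49.3% of all mRNAs.

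**Figure D1:**
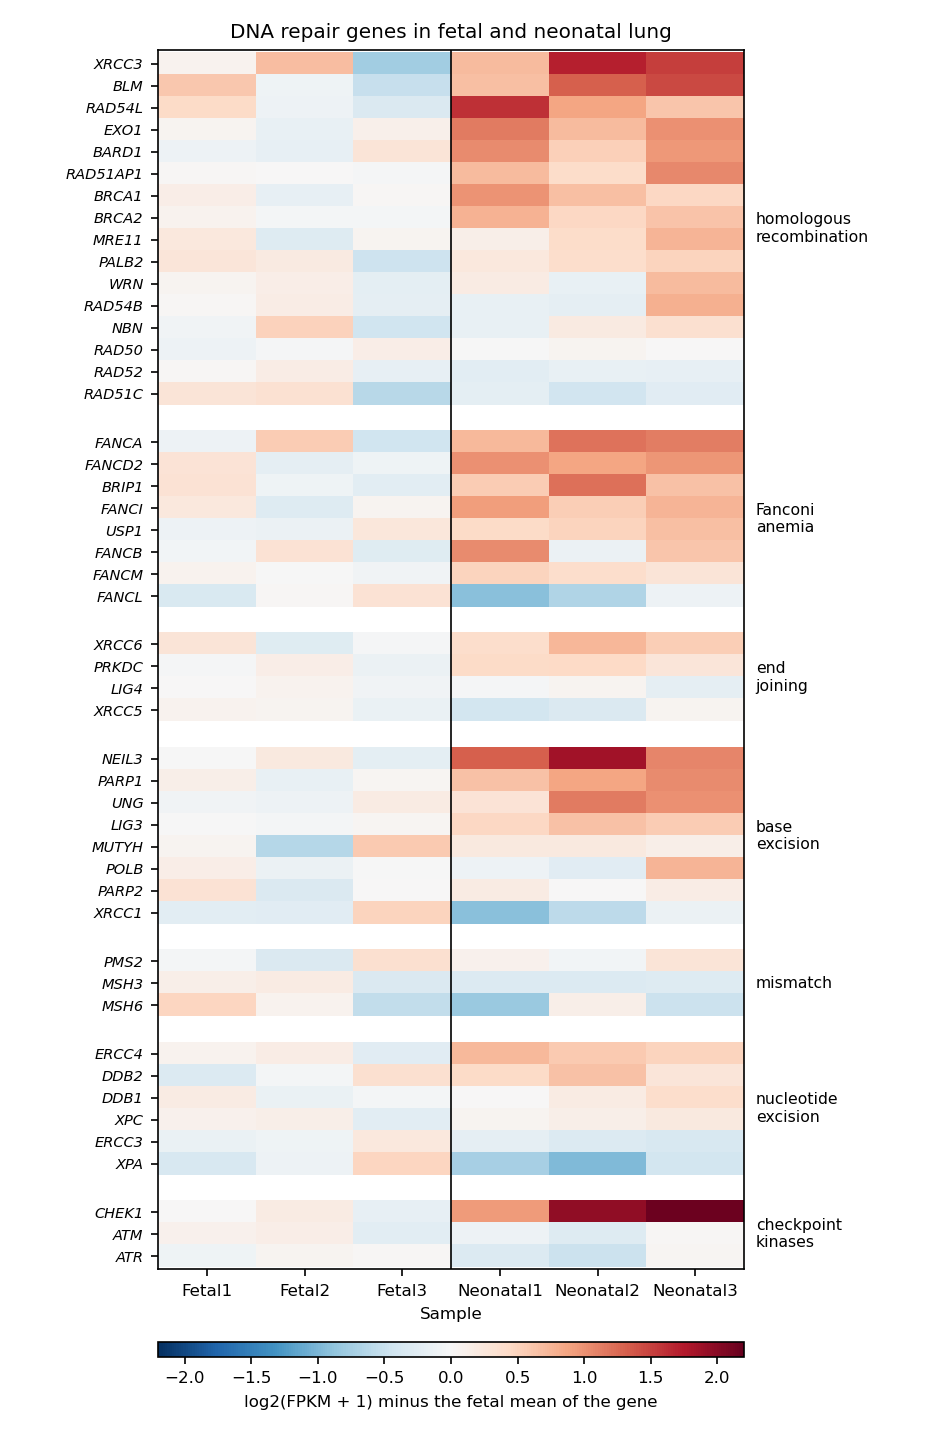
Heat map of the 48 repair genes (rows, grouped by pathway) in the 3 fetal and 3 neonatal samples (columns), where color is log2(FPKM + 1) minus the fetal mean of the gene, red for higher and blue for lower. The red neonatal cells gather in the homologous recombination, Fanconi anemia and base excision blocks and in CHEK1, while XRCC1, XPA and FANCL are blue.

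The 24 homologous recombination and Fanconi genes had a median difference of 0.57, with 21 higher and 3 lower neonatal means. Of these, 14 (58.3%) lay wholly above the fetal samples, beside 20.9% of all mRNAs. The 21 genes of end joining, base excision, mismatch and nucleotide excision repair had a median of 0.14, with 14 higher and 7 lower means. Of them, 7 (33.3%) lay wholly above. Within that set, the 8 base excision genes had a median of 0.37, with 7 higher and 1 lower means, and 4 (50%) lay wholly above. Homologous recombination alone, over 16 genes, had 0.52, with 14 higher and 2 lower means, and 8 (50%) lay wholly above. The 8 Fanconi genes had 6 (75%) wholly above, the 4 end joining genes 2 (50%), the 3 mismatch genes 0 and the 6 nucleotide excision genes 1 (16.7%). The numbers called among the 24 and the 21 genes were alike, 2 of 24 (8.33%) and 2 of 21 (9.52%), all higher, beside 5.41% of all mRNAs called higher. As a ratio of mean FPKM, the median over genes was 1.16 on the log2 scale for the first set, 0.15 for the second and 0.18 for all mRNAs. The contrast between these sets therefore lies in how many genes were separated and in their medians, not in the number called. By the share separated upward, homologous recombination alone did not differ from base excision or end joining (50% each). These counts include genes above the table's minimum in neonatal samples only, which are set apart below. No test was made over genes.

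Summed levels were compared sample by sample. The summed level of the 24 recombination and Fanconi genes was 52.2, 55.0 and 48.6 FPKM in Fetal1 to Fetal3 and 71.7, 75.2 and 86.9 FPKM in Neonatal1 to Neonatal3. The sum of the other 21 genes was 137, 117 and 132 FPKM in the fetal lungs and 135, 154 and 167 FPKM in the neonatal ones. The first sums did not overlap between the groups and the second did, through Neonatal1. The sums over all mRNAs did not overlap either, from 339491 to 471220 FPKM in fetal and from 491548 to 777982 FPKM in neonatal samples, so separation of a sum is not particular to the recombination and Fanconi genes. Only 15 of the 24 recombination and Fanconi genes exceeded 1 FPKM in at least 3 samples, compared with all 21 of the other set and 85.4% of all mRNAs. The table kept an mRNA if any 1 sample exceeded 0.5 FPKM, and BRCA2, EXO1, FANCM, NEIL3, RAD51AP1 and RAD54B exceeded it in neonatal samples only, so that their presence in the table already required a higher neonatal value. With those 6 left out, the medians were 0.52 over 19 recombination and Fanconi genes and 0.13 over 20 others. Higher neonatal means were found for 16 of the 19 and 13 of the 20, and 10 and 6 were separated upward. Of all mRNAs above the minimum in both groups, 60.2% had a higher neonatal mean, and the share separated upward is not reported here. Base excision then had a median of 0.18 over 7 genes, and homologous recombination 0.40 over 12.

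**Figure D2:**
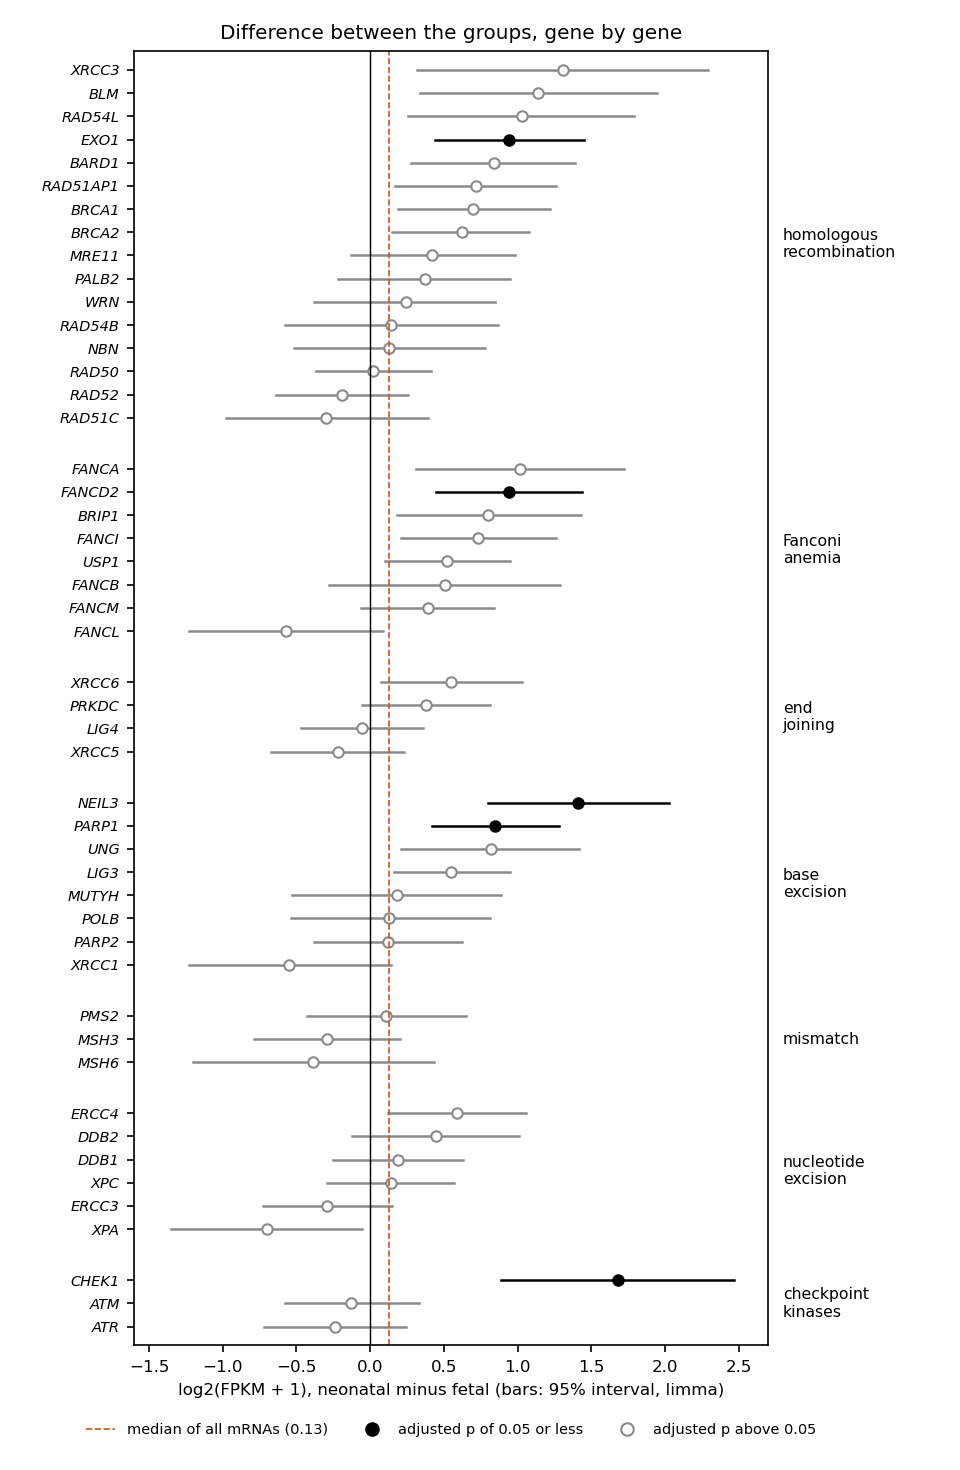
Neonatal minus fetal difference in log2(FPKM + 1) for each of the 48 genes, with the 95% interval from limma as a bar, filled symbols for the 5 genes called and a dashed line at the median of all mRNAs (0.13). Most recombination and Fanconi genes lie to the right of the line, the mismatch genes lie to the left of it, and the nucleotide excision genes lie on both sides.

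Homologous recombination begins with the recognition and trimming of broken ends. The sensor complex of MRE11 (the nuclease), RAD50 (its ATPase) and NBN (its adaptor) was well expressed in both groups, with differences of 0.42 for MRE11, 0.021 for RAD50 and 0.13 for NBN, and the groups overlapped for each. RAD50 was nearly level, from 6.36 to 7.85 FPKM in fetal and from 6.92 to 7.34 FPKM in neonatal samples. EXO1, the exonuclease that lengthens the trimmed ends and also serves mismatch repair, had 0.267, 0.0958 and 0.315 FPKM in Fetal1 to Fetal3 and 1.69, 0.979 and 1.44 FPKM in Neonatal1 to Neonatal3. All neonatal samples were above all fetal ones, and EXO1 rose by 0.94 (SE 0.22, adjusted p = 0.0449, limma), a ratio of 6.07 between mean FPKM.

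BRCA1, the ubiquitin ligase that directs breaks into recombination, had 1.40, 0.908 and 1.22 FPKM in the fetal lungs and 3.29, 2.43 and 1.98 FPKM in the neonatal ones. Its obligate partner BARD1 had 1.04, 0.966 and 1.71 FPKM in the fetal lungs and 3.58, 2.18 and 3.28 FPKM in the neonatal ones. BRCA2, a mediator of strand exchange, had 0.444, 0.327 and 0.317 FPKM before birth and 1.31, 0.864 and 1.11 FPKM after. These 3 genes were separated between the groups, with neonatal means 2.18, 2.43 and 3.01 times the fetal ones, but none was called (adjusted p = 0.108, 0.0840 and 0.113 in limma). PALB2, the bridge between BRCA1 and BRCA2, overlapped, with a difference of 0.37 (SE 0.25).

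Genes for proteins that act on the joined molecules were also separated between the groups. RAD54L, a translocase that promotes strand exchange, had 0.704, 0.174 and 0.0245 FPKM in the fetal lungs and 2.86, 1.33 and 0.934 FPKM in the neonatal ones. BLM, a helicase that dissolves crossed strands, had 1.37, 0.471 and 0.111 FPKM before birth and 1.48, 2.93 and 3.28 FPKM after. XRCC3, which acts in strand exchange and its resolution, had 0.958, 1.98 and 0.0846 FPKM before birth and 2.01, 5.03 and 4.28 FPKM after. Each was separated, BLM and XRCC3 only narrowly, and XRCC3 had the largest difference of the 16 recombination genes described here (1.31, SE 0.42, adjusted p = 0.114). RAD51AP1, which assists strand invasion, was at 0.0376 and 0.0208 FPKM in Fetal1 and Fetal2, was listed at 0 in Fetal3, and had 0.651, 0.347 and 1.12 FPKM in the neonatal samples. A listed 0 can be a failed estimate, and no ratio is given for it.

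Not all recombination genes took this direction. RAD51C, a partner of XRCC3, had 1.34, 1.43 and 0.258 FPKM in the fetal lungs and 0.660, 0.438 and 0.619 FPKM in the neonatal ones, a difference of -0.30 (SE 0.29). RAD52, a strand annealing protein, differed by -0.19 (SE 0.19). RAD54B, a relative of RAD54L, was below 0.4 FPKM in 5 of 6 samples and reached 1.12 FPKM in Neonatal3 alone. WRN, a helicase related to BLM, differed by 0.24 (SE 0.26). All 4 overlapped between the groups. Fetal3 was the lowest fetal sample for 15 of the 24 recombination and Fanconi genes (62.5%) and for 38.6% of all mRNAs, and it had the most mRNAs listed at 0 (5.68%, beside 3.02% to 4.64% in the other samples). Without Fetal3 the median over the 24 genes was 0.62.

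In the Fanconi anemia pathway a core complex attaches ubiquitin to the paired clamp of FANCD2 and FANCI. FANCD2 had 1.42, 0.707 and 0.831 FPKM in the fetal lungs and 2.95, 2.56 and 2.83 FPKM in the neonatal ones. The neonatal samples lay close together and above all fetal ones, and FANCD2 rose by 0.94 (SE 0.21, adjusted p = 0.0425, limma), a ratio of 2.82. FANCI had 1.34, 0.630 and 1.07 FPKM before birth and 2.75, 1.88 and 2.36 FPKM after, also separated, with a difference of 0.73 (SE 0.23, adjusted p = 0.101). USP1, which removes the ubiquitin from the clamp, was the most abundant Fanconi gene listed, with 10.9, 10.8 and 14.3 FPKM in the fetal lungs and 16.3, 17.2 and 19.5 FPKM in the neonatal ones. Its groups were separated at a smaller difference of 0.52 (SE 0.18).

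Among the other Fanconi genes, FANCA of the core complex had 0.561, 1.47 and 0.234 FPKM in the fetal lungs and 1.77, 2.85 and 2.68 FPKM in the neonatal ones. FANCM, the translocase that anchors the core complex, had 0.477, 0.389 and 0.318 FPKM before birth and 0.959, 0.820 and 0.706 FPKM after. BRIP1, a helicase acting downstream of the clamp, had 0.626, 0.222 and 0.104 FPKM before birth and 0.910, 2.00 and 1.04 FPKM after. All 3 were separated upward, and none was called. FANCB of the core complex overlapped, from 0.126 FPKM in Neonatal2 to 1.54 FPKM in Neonatal1. FANCL, the ubiquitin ligase of the core complex, went the other way, with 2.69, 3.74 and 4.81 FPKM in the fetal lungs and 1.45, 1.95 and 3.31 FPKM in the neonatal ones. Its difference of -0.57 (SE 0.28, adjusted p = 0.263) was not called, and the groups overlapped through Neonatal3. The enzyme of the core complex and its substrates FANCD2 and FANCI thus had differences of opposite sign.

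End joining was divided, with 2 higher and 2 lower neonatal means among its 4 genes. Of these, 2 were separated upward (50%, beside 20.9% of all mRNAs). The median difference of the 4 genes was 0.16, 0 were called by limma and 1 had an unadjusted p under 0.05. The Ku heterodimer that holds broken ends consists of XRCC6 (Ku70) and XRCC5 (Ku80). XRCC6 had 11.8, 7.79 and 9.34 FPKM in the fetal lungs and 12.7, 16.5 and 14.3 FPKM in the neonatal ones, separated, with a difference of 0.55 (SE 0.21, adjusted p = 0.158). XRCC5 had 14.9, 14.7 and 12.6 FPKM before birth and 10.3, 11.0 and 14.6 FPKM after, overlapping, with a difference of -0.22 (SE 0.19). The subunits of one dimer thus had differences of opposite sign. PRKDC, the kinase that Ku recruits, had 2.43, 2.91 and 2.23 FPKM before birth and 3.71, 3.77 and 3.22 FPKM after, separated but not called (0.38, SE 0.18). LIG4, the ligase of this route, stayed between 3.47 and 4.45 FPKM in all 6 samples.

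Base excision and single-strand break repair held 2 of the 5 genes called. PARP1, the poly(ADP-ribose) polymerase that senses strand breaks, had 9.54, 7.65 and 8.94 FPKM in the fetal lungs and 14.1, 16.7 and 18.9 FPKM in the neonatal ones. The lowest neonatal value was well above the highest fetal one, and PARP1 rose by 0.85 (SE 0.18, adjusted p = 0.0376, limma), from a mean of 8.71 ± 0.967 to 16.6 ± 2.38 FPKM (SD, n = 3 each), the only called gene with a mean above 3 FPKM over the 6 samples. NEIL3, a glycosylase of oxidized bases that is known to be expressed in dividing cells, had 0.159 and 0.356 FPKM in Fetal1 and Fetal2, was listed at 0 in Fetal3, and had 1.88, 3.17 and 1.46 FPKM in the neonatal samples. NEIL3 rose by 1.41 (SE 0.26, adjusted p = 0.0239, limma), and it was one of the 6 genes whose presence in the table required a higher neonatal value.

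UNG, which removes uracil from DNA, had 4.45, 4.33 and 5.47 FPKM in the fetal lungs and 6.03, 11.7 and 10.6 FPKM in the neonatal ones. The groups were separated, Neonatal1 lay near the fetal range, and the difference of 0.82 (SE 0.26) was not called (adjusted p = 0.109, and 0.0372 without Neonatal1). MUTYH, which removes adenine opposite oxidized guanine, ranged from 2.04 to 5.98 FPKM among the fetal samples and from 4.12 to 4.44 FPKM among the neonatal ones. POLB, the polymerase that fills the gap, was at 7.22 FPKM in Neonatal3 and between 3.08 and 4.37 FPKM in the other 5 samples. PARP2, the second break sensor of this list, differed by 0.12 (SE 0.21) and overlapped.

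**Figure D3:**
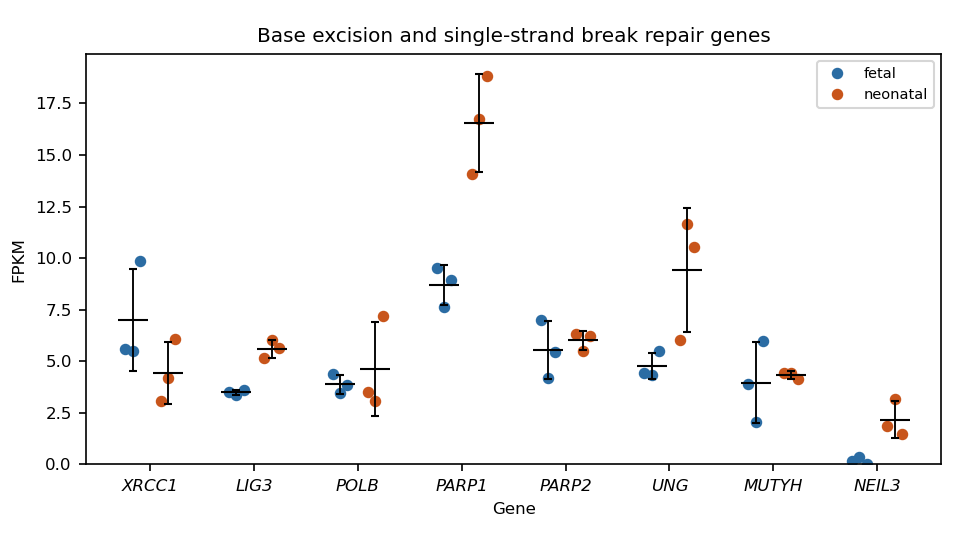
FPKM of the 8 base excision and single-strand break repair genes in each fetal (blue) and neonatal (orange) sample, with the mean as a bar and the SD as whiskers (n = 3), omitted for the fetal samples of NEIL3, where 1 sample is listed at 0. PARP1, LIG3, UNG and NEIL3 are separated upward, PARP2, POLB and MUTYH overlap, and XRCC1 is lower in Neonatal1 and Neonatal2 than in any fetal sample.

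XRCC1, the scaffold on which base excision and single-strand break repair are assembled, had 5.60, 5.51 and 9.87 FPKM in the fetal lungs and 3.08, 4.18 and 6.06 FPKM in the neonatal ones. Fetal3 was far above the other fetal samples, and Neonatal3 lay above Fetal1 and Fetal2, so that the groups overlapped on FPKM without size factors. Neonatal3 had the largest size factor of the 6 samples (1.15), so this overlap depends on the scale. The XRCC1 difference of -0.55 was not called (95% interval -1.23 to 0.14, adjusted p = 0.296, limma). With size factors it was -0.70 (adjusted p = 0.174, limma), also not called. LIG3, the ligase that XRCC1 binds and stabilizes, had 3.49, 3.38 and 3.63 FPKM in the fetal lungs and 5.17, 6.02 and 5.62 FPKM in the neonatal ones. LIG3 was separated with little spread within groups (3.50 ± 0.125 and 5.60 ± 0.424 FPKM, SD, n = 3 each), and its difference of 0.55 (SE 0.17, adjusted p = 0.102) had the opposite sign to that of XRCC1. Of the 8 base excision genes listed, XRCC1 alone had a lower neonatal mean, although PARP2 and POLB joined it under size factors (-0.028 and -0.012).

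Ratios of partners within a sample cancel any difference in scaling between samples, apart from the pseudocount. The XRCC1 to LIG3 ratio of FPKM was 1.61, 1.63 and 2.72 in the fetal lungs and 0.596, 0.694 and 1.08 in the neonatal ones. It did not overlap between the groups, although XRCC1 itself did on FPKM without size factors. The difference in the log2 ratio of FPKM + 1 was -1.10. The XRCC5 to XRCC6 ratio was 1.26, 1.89 and 1.34 before birth and 0.811, 0.665 and 1.03 after, again without overlap, a difference of -0.78. The PARP1 to PARP2 ratio was 1.37, 1.83 and 1.63 before birth and 2.23, 3.06 and 3.02 after, without overlap, a difference of 0.73. For these pairs the transcript ratios thus did not overlap between the groups, and how often other pairs of genes do the same was not tested.

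Other pairs kept their transcript ratio more closely. The BRCA1 to BARD1 ratio was 1.35, 0.940 and 0.710 in the fetal lungs and 0.919, 1.12 and 0.603 in the neonatal ones, overlapping, with a difference of -0.14. The FANCD2 to FANCI ratio differed by 0.21. On the log2(FPKM + 1) scale its groups were separated by the narrowest of gaps (0.067 in Fetal2 and 0.073 in Neonatal1), and on plain FPKM they overlapped, with 1.12 in Fetal2 and 1.07 in Neonatal1. The MRE11 to RAD50 ratio differed by 0.40 with overlap. These ratios are given as a description, and no test was made of them. The ratios of XRCC4 to LIG4 and of ERCC1 to ERCC4 could not be formed here.

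**Figure D4:**
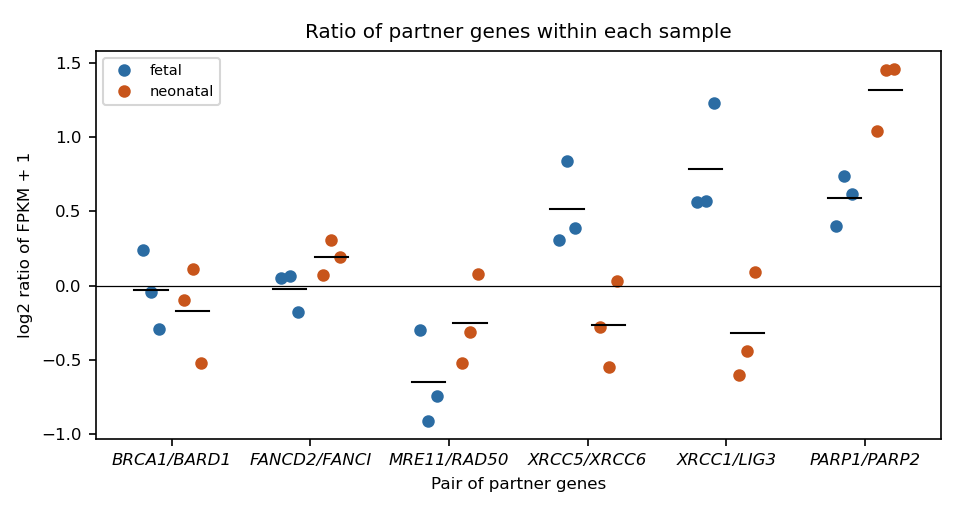
log2 ratio of FPKM + 1 between partner genes in each fetal (blue) and neonatal (orange) sample, with the group mean as a bar (n = 3). XRCC1/LIG3 and XRCC5/XRCC6 are lower and PARP1/PARP2 is higher in every neonatal sample, BRCA1/BARD1 and MRE11/RAD50 overlap, and FANCD2/FANCI is separated by 0.067 against 0.073.

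Mismatch repair was represented by 3 genes, none of which was separated, and limma called 0, with 0 at an unadjusted p under 0.05. MSH6 and MSH3, which recognize mismatches, differed by -0.39 (SE 0.35) and -0.29 (SE 0.21). MSH6 was variable, from 0.398 to 1.82 FPKM among the fetal samples and from 0.163 to 1.24 FPKM among the neonatal ones. PMS2, an endonuclease of this route, differed by 0.11 (SE 0.23). Their median of -0.29 was the lowest of the pathways, over 3 genes.

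Nucleotide excision repair was divided. Of its 6 genes limma called 0, and 2 had an unadjusted p under 0.05. XPA, which verifies the damaged strand, had 2.56, 3.19 and 5.27 FPKM in the fetal lungs and 1.73, 1.31 and 2.45 FPKM in the neonatal ones, separated downward, with a difference of -0.70 (SE 0.28, adjusted p = 0.177). ERCC3, the translocase of TFIIH that opens DNA around the lesion, had 4.49, 4.75 and 6.21 FPKM before birth and 4.32, 3.93 and 3.76 FPKM after, also separated downward (-0.29, SE 0.19, adjusted p = 0.390). ERCC4, the nuclease that cuts on the 5′ side, was separated upward, with 2.05, 2.24 and 1.42 FPKM before birth and 3.71, 3.27 and 3.06 FPKM after (0.59, SE 0.20, adjusted p = 0.131). ERCC4 also acts in crosslink repair beside the Fanconi proteins. The recognition factors XPC, DDB1 and DDB2 overlapped, with differences of 0.14, 0.19 and 0.45, and DDB1 was the most abundant of all 48 genes (32.8 to 41.6 FPKM in fetal and 36.8 to 47.9 FPKM in neonatal samples).

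Of the checkpoint kinases, ATM (activated at broken ends) and ATR (activated at stalled forks) overlapped between the groups, with differences of -0.13 (SE 0.20) and -0.24 (SE 0.21). CHEK1, the kinase that ATR activates to hold the cell cycle, had 0.468, 0.662 and 0.286 FPKM in the fetal lungs and 1.80, 4.64 and 5.57 FPKM in the neonatal ones. Neonatal1 was well below the other neonatal samples but still above all fetal ones. CHEK1 rose by 1.68 (SE 0.34, adjusted p = 0.0308, limma), the largest difference of the 48 genes and a ratio of 8.49 between mean FPKM.

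The calls rested on few animals. Without any 1 of Fetal1, Fetal2, Fetal3, Neonatal2 and Neonatal3, 0 of the 48 genes were called, while 196 to 397 of all mRNAs were. Without Neonatal1, 944 mRNAs were called, and with them CHEK1 (adjusted p = 0.0190), PARP1 (0.0419) and UNG (0.0372). In the other runs the adjusted p of CHEK1 was between 0.104 and 0.115 and that of PARP1 between 0.0955 and 0.146. The adjusted p ranged over all 6 runs from 0.0506 to 0.0849 for NEIL3, from 0.0678 to 0.147 for EXO1 and from 0.0650 to 0.160 for FANCD2. The sign of these 5 differences held in all 6 runs. CHEK1, NEIL3 and PARP1 stayed called under size factors and quantile normalization, while EXO1 (0.0581 and 0.0598) and FANCD2 (0.0585 and 0.0531) did not.

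Levels and differences of the 48 genes are set side by side as a description. The 9 genes with a mean under 1 FPKM over all 6 samples had a median difference of 0.51, the 18 from 1 to under 3 FPKM had 0.72, and the 21 at 3 FPKM or above had 0.13. For all mRNAs in the same ranges the medians were 0.03, 0.06 and 0.16. The low ranges hold the 6 genes that entered the table through neonatal samples only, and these had to be higher there. Without them the lowest range kept 4 genes with a median of 0.11, 2 higher and 2 lower, and the middle range kept 17 genes with a median of 0.70. These 17 include 12 recombination and Fanconi genes, 13 higher and 4 lower means, and 2 of the genes called. Spearman's rho between mean log2 level and difference was -0.32 over the 48 genes and -0.24 over the 42 that remained, all from the same 6 libraries.

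**Figure D5:**
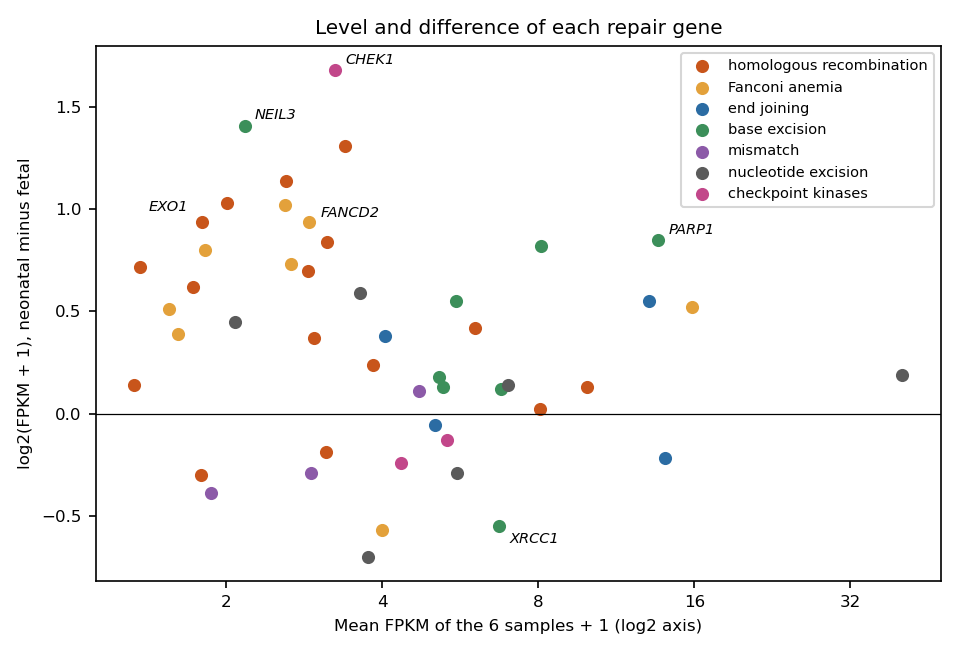
Mean FPKM of the 6 samples plus 1 (log2 axis) against the neonatal minus fetal difference in log2(FPKM + 1), 1 point per repair gene, colored by pathway. The upper left is filled mainly by recombination and Fanconi genes with CHEK1 and NEIL3, PARP1 stands out at a high level, and XRCC1 lies below 0.

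A wider list of 122 repair genes outside the 57 symbols, of which 93 had a row, was set beside these. Of the 93 genes, 8 rose (8.60%, beside 5.41% of all mRNAs) and 0 fell in limma. Separation was upward for 30 (32.3%, beside 20.9% of all mRNAs) and downward for 4 (beside 9.64% of all mRNAs). The median difference was 0.18, beside 0.13 for all mRNAs. The other recombination genes held most of the 8. RECQL4, a replication helicase of the BLM family, had 0.598, 0.279 and 1.06 FPKM before birth and 4.61, 5.87 and 4.85 FPKM after, and rose by 1.91 (adjusted p = 0.00685, at most 0.0441 without any 1 sample). RMI2, a subunit of the BLM complex, rose by 1.41 (adjusted p = 0.00876) and RPA2, which coats single-stranded DNA, by 1.19 (adjusted p = 0.0158). SWI5, a cofactor of strand exchange, rose by 0.93 (adjusted p = 0.0471) and is named here after its value was seen. It took its symbol from the study's list of changed genes, so it is not independent evidence of direction.

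Outside recombination, the genes called were fewer. MAD2L2, a subunit of a lesion bypass polymerase that also guides the choice of break repair, rose by 1.44 (adjusted p = 0.0219), 1 of 12 lesion bypass and direct reversal genes. Among 10 other base excision genes 1 was called, LIG1, the replicative ligase, with a rise of 1.11 (adjusted p = 0.0259), named after its value was seen. Limma called 0 of 6 other Fanconi genes (2 at an unadjusted p under 0.05), 0 of 9 end joining (2), 0 of 5 mismatch (0) and 0 of 13 nucleotide excision genes (1). The 6 other Fanconi genes had a median difference of 0.07, with 3 higher and 3 lower means, beside 0.63 for the 8 Fanconi genes described above. RECQL4 held its call without any 1 sample, unlike RMI2, RPA2 and MAD2L2, whose highest adjusted p was 0.0548, 0.0854 and 0.0877, and unlike LIG1 (0.107) and SWI5 (0.139).

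Proliferation genes were higher in the neonatal lungs as well. Of 38 replication and mitosis genes listed, 31 had a row, all 31 were separated upward, and 30 rose, with a median difference of 2.22. Their summed level was 56.0 to 62.1 FPKM in the fetal and 363 to 437 FPKM in the neonatal samples, and none was listed at 0 in any sample. The replicative helicase subunits MCM2, MCM3, MCM4 and MCM5 rose by 2.69, 2.46, 3.08 and 2.79, and the S phase cyclin CCNA2 by 2.22. The mitotic kinase CDK1 rose as well, with a ratio of 5.22 between mean FPKM. The symbols of 3 of the 31, CCNA2 among them, came from the study's list of changed genes, so that their direction is not independent evidence. Of the other 28, 27 were called. Their sum was 48.59 to 52.15 FPKM in the fetal and 321 to 375 FPKM in the neonatal samples. RECQL4, EXO1, CHEK1 and NEIL3 are known to be expressed in dividing cells. The part of the proliferation genes in the repair results was not tested.

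Among the cell type markers listed, some genes of neutrophils rose. Of 7 neutrophil genes listed, 5 had a row, 4 were separated upward and 3 rose, and their summed level was 81.7 to 155 FPKM in the fetal and 842 to 1311 FPKM in the neonatal samples. The symbols of 2 of the 5 came from the study's list of changed genes, so that their direction is not independent evidence. Of the other 3, 1 was called, and their sum was 28.8 to 40.3 FPKM in the fetal and 188 to 287 FPKM in the neonatal samples. The neutrophil elastase gene ELANE went the other way and was separated downward, but was not called. It had 1.28, 0.562 and 0.0710 FPKM in Fetal1 to Fetal3 and was listed at 0 in all neonatal samples. All 7 macrophage genes with a row had higher neonatal means (median 1.08), 0 were called and 5 had an unadjusted p under 0.05, and their sums of 278 to 665 and 504 to 1195 FPKM overlapped. Alveolar type II genes had a median difference of 0.54 (0 of 7 called, 1 at an unadjusted p under 0.05), and mesenchymal genes had 0.74 (1 of 5 called). Alveolar type I, ciliated, endothelial, lymphocyte and erythroid genes had medians of 0.21, -0.31, -0.029, -0.014 and -0.026, with 0 called of 4, 4, 6, 8 and 7, and 0, 0, 2, 3 and 1 at an unadjusted p under 0.05. Their part in the repair results was not tested.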

How the data were processed

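RNA of lung tissue was sequenced from 3 fetal and 3 neonatal piglets with Ribo-Zero strand-specific libraries. The authors filtered the reads (CASAVA 1.8.2 in the submitters' processing notes), mapped them to the pig genome Sscrofa10.2 with TopHat2 2.1.0 and computed the deposited FPKM with Cufflinks 2.2.1. The values were checked to exceed 0.5 FPKM in at least 1 sample for all 14579 mRNAs. FPKM sums ranged from 339491 to 777982 and medians from 4.99 to 6.11 per sample. Read depth per value is unknown, so no counting error is given. The lncRNA table was not used here.

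Rows were named by pig Ensembl identifier from a reference table (9478 rows, which named all 48 genes) and otherwise from the study's list of changed genes (329 rows). That list's own fold changes and q values were not used. Coordinates and sequences were not used here. The 6 value columns were matched by name.

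Differences in log2(FPKM + 1) were tested over all rows at once with the trend option of limma 3.58.1 under R 4.3.3, followed by Benjamini-Hochberg adjustment. Summaries used Python 3.11.15, numpy 2.4.6 and pandas 2.3.3, and figures matplotlib 3.10.9. Simulated data served to check the fit. Each group holds piglets of separate sows. Genes and lists, including the proliferation, cell type and wider repair lists, were chosen with earlier results of these data known. By rule, all 57 genes could be named, with the 6 largest rises and falls among the other repair genes called (some of these are not reported here) and the defining genes of the remaining lists. Values in every sample are given, among the 57, for genes called, XRCC1 and its partners, and genes without overlap.

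Alternatives were median-of-ratios size factors, quantile normalization, pseudocounts of 0.5 and 0.1, a minimum of FPKM above 1 in at least 3 samples, no variance trend, a replicate block, and each sample left out. A requirement of FPKM above 0.5 in at least 1 sample of each group was added after the data had been seen.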

Additional observations from a re-analysis of the deposited data

How the results depend on the processing

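The number of the 48 repair genes that rose was 5, and became 3 with size factors, 3 with quantile normalization, 3 where FPKM above 0.5 was required in each group (chosen after the data had been seen; EXO1 and NEIL3 were then not tested) and 0 to 3 with 1 sample left out. Leaving out 1 sample gave 1 to 8 of the other repair genes, 8 with all samples. Fewer samples per group were fitted in those runs. Of all mRNA calls, 78.8% were higher, 66.0% with size factors and 57.9% with quantile normalization. Replicate numbers did not pair the piglets (correlations of -0.041, -0.004 and 0.000 between the deviations of same-numbered samples), and a replicate block gave 1 repair gene (NEIL3), 3 other repair genes and 401 mRNAs in place of 1001.

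Pathway medians depended on the scale. With pseudocounts of 0.1 and 0.5 that of homologous recombination was 0.81 and 0.66, of the Fanconi genes 1.25 and 0.83, and of both together 1.11 and 0.80. The Fanconi median was 0.73 with either filter, 0.54 with size factors and with quantile normalization, and 0.59 to 0.71 with 1 sample left out. With size factors and quantile normalization, respectively, end joining had 0.023 and 0.046, nucleotide excision 0.0011 and -0.068, and the 4 pathways beside recombination and Fanconi repair -0.012 and -0.00089. Recombination and Fanconi genes kept 0.50 and 0.49, and 19 of 24 higher means under each. XRCC1 kept its sign and was not called in any setting (-0.75 to -0.31).

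Differences near 0 turned sign. With size factors RAD50 was -0.13, NBN -0.033, PARP2 -0.028, POLB -0.012, PMS2 -0.030 and XPC -0.016. With quantile normalization RAD50 was -0.14, NBN -0.062, PARP2 -0.0091, POLB -0.00089, XPC -0.011 and DDB1 -0.13. When 1 sample was omitted, the range was -0.18 to 0.31 for RAD54B, -0.038 to 0.095 for RAD50, -0.088 to 0.38 for NBN, -0.12 to 0.017 for LIG4, -0.13 to 0.47 for MUTYH, -0.037 to 0.28 for PARP2, -0.18 to 0.32 for POLB and -0.049 to 0.29 for PMS2. The other sign came without Fetal1 for RAD50, without Fetal2 for MUTYH, PARP2 and PMS2, without Fetal3 for NBN, and without Neonatal3 for RAD54B, LIG4 and POLB. None of these genes was called in any of the settings. The cause was not tested. Without read counts, the precision of genes below 1 FPKM is unknown.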
